A study of Mus musculus with 15 samples.

Results

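Expression of 9 transcription factors that act in blood stem cells outside the Hox clusters was described across mouse hematopoietic stem cells (HSCs) sorted by how much of a diluting histone label they had kept. The members were the rows of the deposited table whose symbols are Mecom, Hlf, Mllt3, Meis1, Prdm16, Gfi1, Runx1, Erg and Etv6, and all 9 were found among 31298 symbols. The mice were of the cross hCD34-tTA x TetO-H2BGFP, in which a tetracycline transactivator driven by human CD34 sequence switches on a fusion of histone H2B with green fluorescent protein (GFP). Every mouse, those of the undivided sort included, drank doxycycline at 1 mg/ml. The drug stops new label, so that label is diluted at each division. Cells of the gate LSK, CD48-, Flk2-, CD150+ were divided into the bins GFP4, GFP3, GFP2 and GFP1, or were left undivided as the group called Total. Each of the 5 groups held 3 libraries, with replicate numbers I to III. Replicate I of each group came from mice aged 5 months after 12 weeks of drug, replicate II from mice aged 5.5 months after 14 weeks, and replicate III from mice aged 6.5 months after 16 weeks. The labels do not say which end of the bin numbers keeps most label, whether a replicate is 1 mouse or a pool, or whether libraries with the same number share mice. The bin number is taken here to rise with label. As the CD34-driven transactivator has to load a cell with label before the drug, the bins do not separate cells that diluted their label from cells that made little. All p-values given rest on the spread among these libraries, which may in part be technical.

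HSCs are mostly quiescent, and their ability to rebuild blood after transplantation declines as they divide. The factors described here are known for roles in forming HSCs or in keeping that ability. Mecom and Prdm16 are related zinc finger proteins that can carry a PR domain, and loss of either in mice depletes HSCs. Hlf is a PAR bZIP factor whose messenger RNA marks HSCs among blood cells. Mllt3 (AF9) is a reader of acylated histone H3 that brings DOT1L and the super elongation complex to genes and supports HSC maintenance in culture. Meis1 is a TALE homeodomain factor that pairs with Pbx and Hox proteins. Gfi1 is a zinc finger repressor that restrains HSC proliferation and acts through the LSD1 and CoREST complex. Runx1 is the DNA-binding partner of Cbfb and is needed for HSCs to form in the embryo. Erg and Etv6 are ETS factors, and each is needed to keep adult HSCs. Runx1, Erg, Fli1, Gata2, Lmo2, Lyl1 and Tal1 are the heptad, a group of factors known to bind many of the same blood stem cell enhancers.

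On GRCm38, by the GENCODE annotation, the members are protein-coding genes at chr3:29951296-30548008 (Mecom), chr11:90336536-90390895 (Hlf), chr4:87769925-88033364 (Mllt3), chr11:18879817-19018985 (Meis1), chr4:154316125-154636873 (Prdm16), chr5:107716657-107726036 (Gfi1), chr16:92601466-92826149 (Runx1), chr16:95359169-95586593 (Erg) and chr6:134035700-134270158 (Etv6). Etv6 lies on the plus strand and the other 8 on the minus strand. The table has 1 value per gene and does not separate transcripts, such as those that start at the upstream and downstream promoters of Mecom.

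RefSeq promoter windows of GRCm38.p6, each 300 bases long with 250 before the start and 50 from the start base on, were found for all 9 members, 15 windows in all. Positions count from 1 at the start base, with -1 the base before it. The windows of Mecom and Prdm16 are shown because these relatives were both lower in GFP1 than in GFP4 cells and share a run of 24 bases, printed in capitals. The run begins at position 27 of the more upstream Mecom window (chr3:30509710-30510009, minus strand), where it reaches the window's last base, and at position 10 of the Prdm16 window (chr4:154636824-154637123, minus strand). It is held by 2 of 32851 mouse promoter windows, these 2 alone, and the next longest run shared by windows of different members had 14 bases among 98 pairs of windows compared.
Mecom upstream promoter: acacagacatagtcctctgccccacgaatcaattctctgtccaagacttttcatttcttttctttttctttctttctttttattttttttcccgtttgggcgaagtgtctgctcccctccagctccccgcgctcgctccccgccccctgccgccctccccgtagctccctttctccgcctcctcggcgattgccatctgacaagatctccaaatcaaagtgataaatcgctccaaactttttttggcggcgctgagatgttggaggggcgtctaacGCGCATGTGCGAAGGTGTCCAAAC
Prdm16 promoter: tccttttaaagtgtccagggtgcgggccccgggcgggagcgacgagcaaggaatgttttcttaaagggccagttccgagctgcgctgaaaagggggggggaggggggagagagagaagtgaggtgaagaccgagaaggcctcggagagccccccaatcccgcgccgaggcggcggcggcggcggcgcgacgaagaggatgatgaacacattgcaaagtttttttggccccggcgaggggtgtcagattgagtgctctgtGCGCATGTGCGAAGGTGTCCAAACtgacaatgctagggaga

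The windows of Runx1 and Meis1 are shown because they hold the RUNX letters TGTGGT, searched on both strands and printed in capitals as they read 5′ to 3′ along the gene. The upstream Runx1 window (chr16:92826025-92826324, minus strand) holds them at positions 29 and 37 on the opposite strand, and the Meis1 window (chr11:19018920-19019219, minus strand) at position -166. These letters occur in 16.8% of all windows, and in 2 of the 15 windows of the members. The Hlf window (chr11:90390868-90391167, minus strand) is shown because Hlf had the smallest adjusted p of the 9 in GFP1 against GFP4. It holds none of the letters searched and is printed without capitals.
Runx1 upstream promoter: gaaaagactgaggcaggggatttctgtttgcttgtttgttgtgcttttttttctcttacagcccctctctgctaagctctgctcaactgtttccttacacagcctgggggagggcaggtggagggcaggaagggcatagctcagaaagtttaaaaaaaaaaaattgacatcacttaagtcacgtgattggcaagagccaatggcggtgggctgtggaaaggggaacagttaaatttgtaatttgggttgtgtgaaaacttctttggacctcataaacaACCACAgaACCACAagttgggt
Meis1 promoter: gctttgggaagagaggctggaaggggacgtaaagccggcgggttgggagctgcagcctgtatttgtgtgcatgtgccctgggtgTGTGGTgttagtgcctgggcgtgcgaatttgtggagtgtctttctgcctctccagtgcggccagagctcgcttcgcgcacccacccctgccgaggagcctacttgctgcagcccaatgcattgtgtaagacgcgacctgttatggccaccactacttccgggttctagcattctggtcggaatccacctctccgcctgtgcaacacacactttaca
Hlf promoter: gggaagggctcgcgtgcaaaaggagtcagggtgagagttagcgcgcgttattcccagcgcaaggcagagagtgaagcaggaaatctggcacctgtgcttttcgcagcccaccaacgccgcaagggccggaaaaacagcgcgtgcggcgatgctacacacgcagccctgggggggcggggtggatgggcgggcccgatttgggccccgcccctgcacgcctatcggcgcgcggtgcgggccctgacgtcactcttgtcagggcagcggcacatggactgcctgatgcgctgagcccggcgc

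The other letters searched on both strands were found as follows. The ETS letters GGAAGT, in 23.8% of all windows, were in the Meis1 window. The GATA factor letters AGATAA, in 11.2% of windows, were in 1 of 3 Erg windows, and the MEIS letters TGACAG, in 19.2%, were in a window each of Mecom, Mllt3 and Erg. The GFI letters AAATCA, in 14.0%, were in the upstream Mecom window and the Etv6 window, and the MYC type E-box letters CACGTG, in 7.15%, were in the upstream Runx1 window. The PAR bZIP letters TTACGTAA and TTATGTAA, in 0.119% and 0.938% of windows, were in no member's window. No 2 of these matches overlapped in a member's window. They describe letters in these windows and were not tested for binding.

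Values are log2 expression values as deposited, quantile normalized across libraries, and range over the table between 0.138 and 19.1. Read depth is unknown, so no counting interval is given. Of 12 HSC markers, none was at the table's lowest value in all 3 libraries of any group. The same held for the T and NK cell, macrophage and mesenchymal stromal lists, so this does not tell HSCs from other cells. Of the HSC markers, 7 were lower and 0 higher in GFP1 than in GFP4 cells. By smallest p, not by size of difference, Fgd5 (log2 difference -1.84) and Robo4 (-1.36) came first. The GFP1 and Total libraries stood apart from the other bins by immunoglobulin transcripts, which took 4.92% to 5.28% of all linear values in GFP1 libraries and 4.34% to 5.49% in Total libraries. The share was 0.00726% to 0.0737% in the libraries of GFP4, GFP3 and GFP2. All 12 plasma cell markers and 9 of 12 B cell markers were higher in GFP1 than in GFP4 cells. The summed linear level of the plasma cell list was 754600 to 1003000 in GFP1, against 12530 to 23330 in GFP4. All 20 genes of the G2 and M phase list were higher as well, at a summed 121700 to 144800 in GFP1, against 24790 to 34650 in GFP4. No marker of these 3 lists was at the lowest value in all 3 libraries of any group. Their part in the members' differences was not tested in GFP1 against GFP4. GFP2 and GFP4 were both low in immunoglobulin transcripts, and GFP1 and Total were both high in them, so these comparisons are also given. In bulk libraries, fewer cells of a type and less messenger RNA per cell cannot be told apart.

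At the ends of the label range, 6 of the 9 factors were lower in GFP1 than in GFP4 cells and 0 were higher. The 6 were Mllt3, Hlf, Mecom, Prdm16, Erg and Meis1, with log2 differences between -2.16 and -0.42. Gfi1, Etv6 and Runx1 did not pass the test, limma's moderated test over 27994 genes with Benjamini-Hochberg adjustment at 0.05. Among all genes tested, 10.3% were called lower and 9.27% higher, a balance that turned under both rescalings, with 2516 lower and 2964 higher by median of ratios and 2520 lower and 2681 higher without immunoglobulin genes. The median difference was -0.95 over the members and -0.07 over all genes tested. In 7 of the 9, all 3 GFP1 libraries were below all 3 GFP4 libraries, an order that 17.6% of all genes tested showed.

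**Figure D1:**
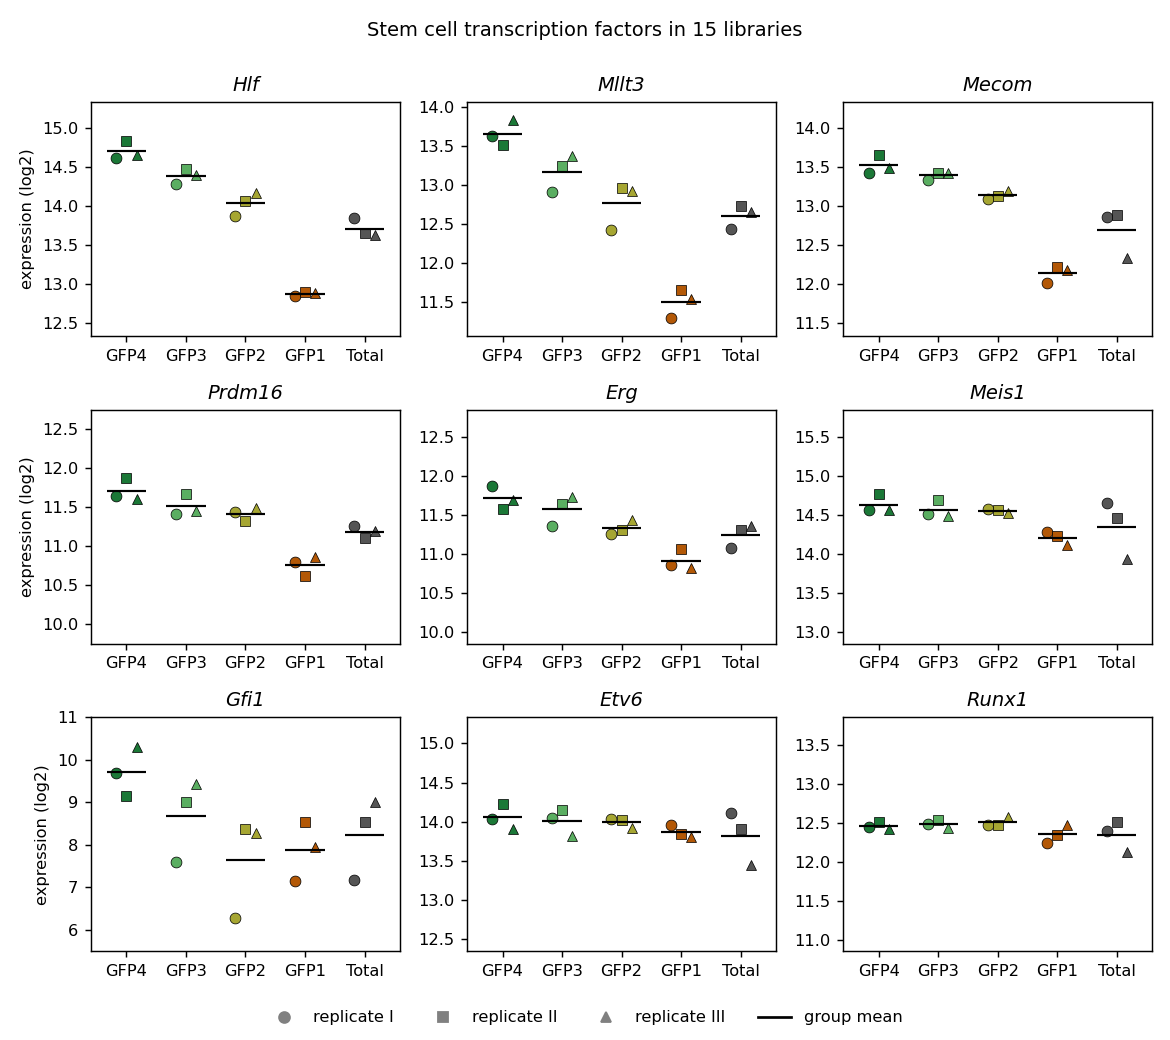
Log2 expression value (vertical axis) of each factor in the 15 libraries, by group (horizontal axis); symbols mark replicates I, II and III and bars the group means of 3 libraries. Panels span 3 log2 units except that of Gfi1, which spans 5.5. Hlf, Mllt3 and Mecom step down from GFP4 to GFP1 with Total above GFP1, Runx1 and Etv6 stay within a range of 0.444 and 0.785 over all libraries, and Gfi1 is spread widely within groups.

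Hlf was lower in each successive bin. It was at 14.63, 14.83 and 14.66 in GFP4, at 14.29, 14.48 and 14.41 in GFP3, at 13.88, 14.07 and 14.17 in GFP2, at 12.85, 12.90 and 12.89 in GFP1 and at 13.85, 13.66 and 13.63 in Total (replicates I, II and III). No library of a bin overlapped one of the next bin, and every Total library lay between the GFP1 and the GFP2 libraries. The log2 difference of GFP1 against GFP4 was -1.83 ± 0.088 (SE; adjusted p 1.1e-10), a level in GFP1 of 0.282 times that in GFP4.

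Mllt3 had the widest difference of the called members. It was at 13.63, 13.52 and 13.83 in GFP4, at 12.91, 13.24 and 13.37 in GFP3, at 12.43, 12.96 and 12.93 in GFP2, at 11.30, 11.65 and 11.54 in GFP1 and at 12.43, 12.73 and 12.66 in Total. The GFP3 and GFP2 libraries overlapped, and the Total libraries fell among those of GFP2. Replicate I was the lowest library in 4 of the 5 groups, all but GFP4. The GFP1 level was 0.223 times the GFP4 level (log2 difference -2.16 ± 0.15, SE; adjusted p 3.31e-08).

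The 2 related zinc finger genes were both lower in GFP1. Mecom was at 13.43, 13.65 and 13.49 in GFP4, at 13.34, 13.43 and 13.43 in GFP3, at 13.09, 13.14 and 13.20 in GFP2, at 12.02, 12.23 and 12.18 in GFP1 and at 12.86, 12.89 and 12.33 in Total. Its libraries did not overlap between bins, with GFP1 farthest from the others. GFP4 and GFP3 all but met, at a lowest GFP4 value of 13.4293 and a highest GFP3 value of 13.4268. Total replicate III stood below Total replicates I and II. Prdm16 was at 11.64, 11.88 and 11.60 in GFP4, at 11.41, 11.67 and 11.45 in GFP3, at 11.43, 11.31 and 11.49 in GFP2, at 10.79, 10.62 and 10.86 in GFP1 and at 11.26, 11.10 and 11.19 in Total. Its GFP3 libraries overlapped those of GFP4 and GFP2, whereas all GFP1 libraries were below every other library. In GFP1 against GFP4 the log2 difference of Mecom was -1.38 ± 0.12 (SE; adjusted p 5.87e-08) and that of Prdm16 -0.95 ± 0.11 (SE; adjusted p 2.11e-06).

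Erg was at 11.88, 11.58 and 11.70 in GFP4, at 11.35, 11.64 and 11.73 in GFP3, at 11.25, 11.31 and 11.44 in GFP2, at 10.86, 11.06 and 10.83 in GFP1 and at 11.07, 11.30 and 11.36 in Total. GFP3 overlapped both GFP4 and GFP2, and GFP1 lay below all other libraries. Its log2 difference of GFP1 against GFP4 was -0.80 ± 0.12 (SE; adjusted p 4.47e-05). Erg is also known as a factor of endothelial cells, and 6 of 12 endothelial markers were lower in GFP1, 0 higher, at a summed linear level of 12130 to 12720 in GFP1, against 19310 to 20120 in GFP4. None of the 12 was at the table's lowest value in all 3 libraries of a group, and the part of endothelial transcripts in the difference of Erg was not tested.

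Meis1 had the smallest difference of those called. It was at 14.56, 14.77 and 14.56 in GFP4, at 14.51, 14.69 and 14.49 in GFP3, at 14.57, 14.56 and 14.52 in GFP2, at 14.28, 14.22 and 14.11 in GFP1 and at 14.65, 14.45 and 13.93 in Total. The first 3 bins overlapped and GFP1 lay below them, while Total ran from above GFP2 to below GFP1, with replicate III lowest of all 15 libraries. The log2 difference of GFP1 against GFP4 was -0.42 ± 0.13 (SE; adjusted p 0.0308). This call was lost when normalization was repeated without immunoglobulin genes (adjusted p 0.0792), under median-of-ratios rescaling (adjusted p 0.055), and without GFP4 replicate I (0.0531), GFP4 replicate II (0.128), GFP4 replicate III (0.0505), GFP1 replicate II (0.0716) or GFP1 replicate III (0.117, all adjusted p of limma).

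Gfi1 had the widest spread within groups. It was at 9.68, 9.14 and 10.31 in GFP4, at 7.59, 9.0 and 9.42 in GFP3, at 6.28, 8.38 and 8.28 in GFP2, at 7.14, 8.53 and 7.94 in GFP1 and at 7.17, 8.54 and 9.0 in Total. All GFP1 and all GFP2 libraries were below all GFP4 libraries, and replicate I was the lowest in every group but GFP4. The SD within a group ran from 0.58 to 1.19 for Gfi1 and did not exceed 0.37 for any other member. The log2 difference of GFP1 against GFP4, -1.84, had a 95% interval of -3.43 to -0.25 and an adjusted p of 0.114 in limma, and so was not called. That call changed with the fit: Gfi1 was called lower in limma when the compared groups were fitted alone (adjusted p 0.036) and when the replicate number, which stands for 1 age and 1 drug time, was a block (0.0049).

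Runx1 and Etv6 did not pass the test at either end. Runx1 was at 12.45, 12.51 and 12.42 in GFP4, at 12.49, 12.54 and 12.44 in GFP3, at 12.48, 12.48 and 12.58 in GFP2, at 12.25, 12.34 and 12.48 in GFP1 and at 12.40, 12.51 and 12.14 in Total. Etv6 was at 14.03, 14.23 and 13.90 in GFP4, at 14.05, 14.15 and 13.81 in GFP3, at 14.04, 14.02 and 13.92 in GFP2, at 13.95, 13.84 and 13.81 in GFP1 and at 14.11, 13.90 and 13.44 in Total. For both genes every bin overlapped GFP4, and Total replicate III was the lowest of the 15 libraries. The log2 difference of GFP1 against GFP4 was -0.11 for Runx1 (95% interval -0.31 to 0.09, adjusted p 0.555 in limma) and -0.19 for Etv6 (-0.48 to 0.10, adjusted p 0.433), so that a decline as large as that of Erg lies outside both intervals.

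Across the 4 bins, the linear trend called the same 6 members lower and 0 higher, where 10.5% of all genes were called lower and 9.6% higher. The slopes per bin towards GFP1 were -0.69 for Mllt3, -0.58 for Hlf, -0.44 for Mecom, -0.29 for Prdm16, -0.26 for Erg and -0.13 for Meis1. The last of these had an adjusted p of 0.0376 in limma, was lost under both rescalings (0.0921 and 0.0627) and was lost without any 1 of GFP4 replicates I, II and III, GFP3 replicate II, or any 1 library of GFP2 or GFP1 (adjusted p between 0.0514 and 0.139). Gfi1 had a slope of -0.65 with an adjusted p of 0.0718, which became 0.0434 without GFP3 replicate I, 0.031 with a filter at a mean of 1 ppm and 0.00216 with a replicate block. Etv6 had -0.06 and Runx1 -0.03, with adjusted p of 0.448 and 0.61.

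The group means of 7 of the 9 members, all but Gfi1 and Runx1, were lower at each step of GFP4, GFP3, GFP2 and GFP1. The steps were unequal. In GFP3 against GFP4 limma called 0 members, with 0.0572% of all genes called in either direction, although Hlf and Mllt3 had unadjusted p of 0.00217 and 0.00484. The log2 difference was -0.49 for Mllt3, -0.31 for Hlf, -0.20 for Prdm16, -0.14 for Erg and -0.13 for Mecom. In GFP2 against GFP3 0 members and 0% of genes were called in limma at adjusted p under 0.05, although Hlf, Mecom and Mllt3 had unadjusted p of 0.000724, 0.0407 and 0.0161. In GFP1 against GFP2, 5 members were called lower and 0 higher, where 4.1% of all genes were called lower and 3.06% higher. Their log2 differences were -1.27 for Mllt3, -1.16 for Hlf, -1.0 for Mecom, -0.65 for Prdm16 and -0.42 for Erg. The call of Erg, at an adjusted p of 0.035, was lost under both rescalings (0.0527 and 0.0839) and without GFP2 replicate II (0.0897), GFP2 replicate III (0.149), GFP1 replicate I (0.122) or GFP1 replicate III (0.146). Meis1 had -0.34 with an adjusted p of 0.152, and 0.00611 in a fit without Total replicate III, the library in which Meis1 was lowest. The last step held 72.3% of the GFP1 to GFP4 difference of Mecom, 69.0% of that of Prdm16, 63.4% of that of Hlf, 58.8% of that of Mllt3 and 52.4% of that of Erg. GFP1 is also the bin rich in immunoglobulin and G2 and M phase transcripts.

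Between GFP2 and GFP4, both low in immunoglobulin transcripts, 2 members were called lower and 0 higher, where 1.67% of all genes were called lower and 2.69% higher. Mllt3 had a log2 difference of -0.89 ± 0.15 (SE; adjusted p 0.00204) and Hlf one of -0.67 ± 0.088 (SE; adjusted p 0.000199), both in limma. The GFP2 libraries lay below all GFP4 libraries for 6 members, which also included Mecom, Prdm16, Erg and Gfi1, and 9.66% of all genes tested showed that order. Mecom had -0.38 and Erg -0.38, with adjusted p of 0.0715 and 0.0808. Mecom was called when the fit left out all GFP1 and Total libraries (0.00648) or Total replicate III alone (0.00393). Prdm16 had -0.29 (adjusted p 0.159) and Gfi1 -2.06 (0.183), and Meis1, Etv6 and Runx1 had -0.08, -0.06 and 0.05. All 20 genes of the G2 and M phase list were higher in GFP2 than in GFP4 cells, at a summed 64140 to 95370 in GFP2, against 24790 to 34650 in GFP4. Markers of 2 blood lineages moved with them. Of 10 megakaryocyte markers 4 were higher and 0 lower, Gp1bb (log2 difference 2.41), Itga2b (1.81), Gp5 (1.54) and Treml1 (0.94), and the list's summed level was 14300 to 18740 in GFP2, against 5919 to 6293 in GFP4. Of 12 erythroid markers 2 were higher and 0 lower, Gata1 (2.66) and Epor (1.41), with overlapping sums of 74880 to 89760 in GFP2, against 59290 to 84340 in GFP4. No marker of either list was at the table's lowest value in all 3 libraries of any group. The part of these genes in the differences of Mllt3 and Hlf was not tested.

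**Figure D2:**
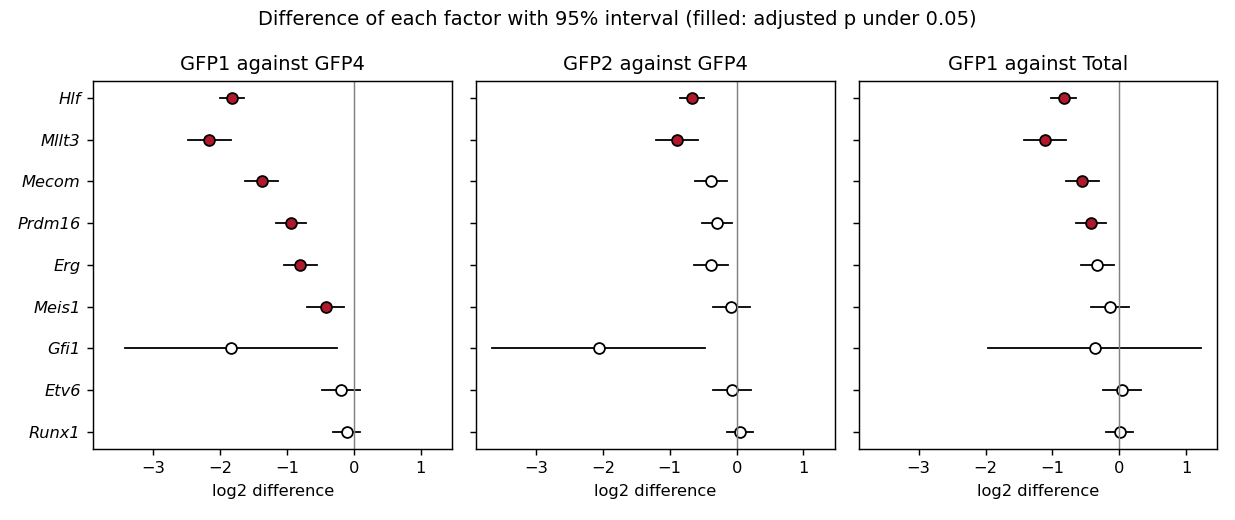
Log2 difference (horizontal axis) of each factor in GFP1 against GFP4, GFP2 against GFP4 and GFP1 against Total, with limma's 95% interval as a line; filled points had an adjusted p under 0.05. Filled points number 6, 2 and 4, all to the left of 0, and the widest intervals are those of Gfi1.

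Against the undivided sort, the order of group means was GFP4, GFP3, GFP2, Total, GFP1 for Mecom, Hlf, Mllt3, Prdm16, Erg and Meis1. In GFP4 against Total, 5 members were called higher and 0 lower, where 4.7% of all genes were called higher and 5.29% lower. Their log2 differences were 1.05 for Mllt3, 0.99 for Hlf, 0.83 for Mecom, 0.52 for Prdm16 and 0.47 for Erg. The call of Erg, at an adjusted p of 0.0129 in limma, was lost without GFP4 replicate I (0.0859) or Total replicate I (0.0607). In GFP3 against Total 2 were called higher, Mecom at 0.70 and Hlf at 0.68, where 0.672% of all genes were called higher. Mllt3 had 0.56 there with an adjusted p of 0.0649, which came to 0.0204 without GFP3 replicate I and 0.0211 without GFP2 replicate I. With a replicate block Mllt3 was called there (adjusted p 0.00359 in limma), and the genes called in either direction numbered 927, against 599 without the block. In GFP2 against Total 0 members were called by limma, where 0.318% of all genes were called lower and 0.0107% higher, and Mecom (0.45), Hlf (0.32) and Prdm16 (0.23) had unadjusted p of 0.000995, 0.00161 and 0.0463. At this spread no member's level told GFP2 from Total, neighbours in the order of 6 members, past the threshold. The groups themselves differed, with immunoglobulin transcripts at 0.00726% to 0.0162% in GFP2 and at 4.34% to 5.49% in Total.

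GFP1 and Total carried immunoglobulin transcripts at similar shares, and between them 4 members were called lower and 0 higher, where 1.41% of all genes were called lower and 0.318% higher. The log2 differences of GFP1 against Total were -1.11 for Mllt3 (adjusted p 0.000887 in limma), -0.83 for Hlf (5.47e-05), -0.55 for Mecom (0.0163) and -0.42 for Prdm16 (0.0495). In that comparison limma called 0 of the 12 plasma cell markers (1 at unadjusted p under 0.05) and 0 of the 20 G2 and M phase genes (15 at unadjusted p under 0.05), whose summed level was 121700 to 144800 in GFP1, against 83440 to 99880 in Total. Of the megakaryocyte markers limma called Gp5 alone, which was higher in GFP1 than in Total (log2 difference 0.73, adjusted p 0.0291). The summed level of that list was 37540 to 57280 in GFP1, against 20770 to 35500 in Total. No erythroid marker was called. The part of these genes in the members' differences was not tested. The call of Prdm16 ended under both rescalings (0.0573 and 0.0729). It also ended without any 1 library of GFP1, Total or GFP2, and without replicate I or III of GFP4 or GFP3 (adjusted p between 0.0564 and 0.198). The call of Mecom ended without GFP1 replicate I (0.0858), GFP1 replicate III (0.0582), Total replicate I (0.0742) or Total replicate II (0.0805). Comparisons against Total share its 3 libraries, and those against GFP4 share the GFP4 libraries.

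Members that moved alike across groups did not always vary alike within them. Over 15 libraries, which all genes share, Pearson's r was 0.969 between Mecom and Hlf, 0.967 between Hlf and Prdm16, 0.966 between Hlf and Mllt3 and 0.928 between Mecom and Prdm16. After group means were removed these values were 0.575, 0.542, 0.309 and 0.137. The highest r within groups was instead 0.967 between Mllt3 and Gfi1, both low in replicate I outside GFP4, and the next was 0.94 between Meis1 and Etv6, both low in Total replicate III. Mecom and Runx1, also low in that library, had 0.851. These values are descriptions of 15 libraries and carry no test.

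Among 9789 genes whose linear value averaged 10 ppm or more of a library's sum, the genes closest to a member by r over the 15 libraries were taken, at most 3 for each. For Hlf they were Itsn1, an endocytic scaffold (0.992), Nceh1 (0.99) and Tnip3 (0.988). For Mllt3 they were Hacd4 (0.994), Zfp467 (0.991) and Pnrc1 (0.99), and for Mecom they were Txnip, the thioredoxin-interacting protein (0.987), Mctp1 (0.985) and Abcg2, an efflux transporter known from side population stem cells (0.984). Prdm16 was close to Ltbp3, a TGF-beta binding protein (0.978), and Klhdc8b (0.977). Erg was closest to Akap7 (0.98), C1ra (0.967) and Ifitm1 (0.966). Meis1 was closest to Fut8 (0.956), Atf7 (0.955) and Zmym6 (0.955), Etv6 to Ubap2l (0.948), Shprh (0.941) and Cblb (0.935), and Runx1 to Ywhaz (0.88), Dock1 (0.88) and Stau2 (0.877). Gfi1 was close to Hist1h1c (0.895) and Ly6a (0.894).

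Of 8 pairs of a member with a relative or partner, 7 are described, each compared by the slope of the log2 difference between the pair's genes over the 12 binned libraries. The 7 slope differences passed an exact permutation test, two-sided, adjusted over the 8 pairs, where the smallest p possible is 5.41e-06. Runx1 had a slope of -0.03 per bin and Runx3, a relative known from T and NK cells, one of 0.87 (difference -0.90, adjusted p 4.33e-05). Runx3 averaged 10.9 ± 0.065 in GFP1 and 8.25 ± 0.059 in GFP4 (SD, n = 3 each). In the T and NK cell list 5 of 12 markers were higher and 1 lower in GFP1, at a summed level of 7952 to 8931 in GFP1, against 2934 to 3130 in GFP4. Runx3 was also higher in GFP2 than in GFP4 (log2 difference 1.44, adjusted p 4.24e-05 in limma). There the T and NK cell sums overlapped, with 2924 to 3439 in GFP2, although Nkg7 of that list was higher (1.17, adjusted p 0.0189 in limma). The part of T and NK cell transcripts in the differences of Runx3 was not tested.

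Mllt3 and its paralog Mllt1 (ENL) moved in opposite directions, with slopes of -0.69 and 0.15 (difference -0.84, adjusted p 4.33e-05, exact permutation). Mllt1 averaged 11.9 ± 0.14 in GFP1 and 11.4 ± 0.071 in GFP4 (SD, n = 3 each), a change that limma also called (log2 difference 0.45, adjusted p 0.00231). Hlf had a slope of -0.58 and Tef, another PAR bZIP factor, one of -0.21 (difference -0.37, adjusted p 0.000292). Erg had -0.26 and Fli1, its close ETS relative, -0.0043 (difference -0.26, adjusted p 0.000101), and Fli1 averaged 13.1 ± 0.11 in GFP1 and 13.1 ± 0.083 in GFP4 (SD, n = 3 each). Erg also had a steeper slope than Etv6 (difference -0.21, adjusted p 0.00593), and Mecom than Prdm16 (-0.15, adjusted p 0.00454). Gfi1 had -0.65 and Gfi1b, its relative in the erythroid and megakaryocyte lineages, 0.16 (difference -0.81, adjusted p 0.0133). The limma trend did not call Gfi1 itself (adjusted p 0.0718). Gfi1b was not called by limma in GFP2 against GFP4 (log2 difference 0.27, adjusted p 0.851) or in GFP1 against Total (0.06, adjusted p 0.985). The erythroid list had 6 of 12 and the megakaryocyte list 8 of 10 markers higher in GFP1 than in GFP4 cells, with 0 lower in either, and their part in the level of Gfi1b was not tested. With the GFP1 libraries left out, 3 of the 7 pairs passed, those of Runx1 with Runx3, Mllt3 with Mllt1 and Erg with Fli1, and the other 4 had adjusted p between 0.0514 and 0.315. The 7 pairs passed without any 1 of the 12 libraries.

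**Figure D3:**
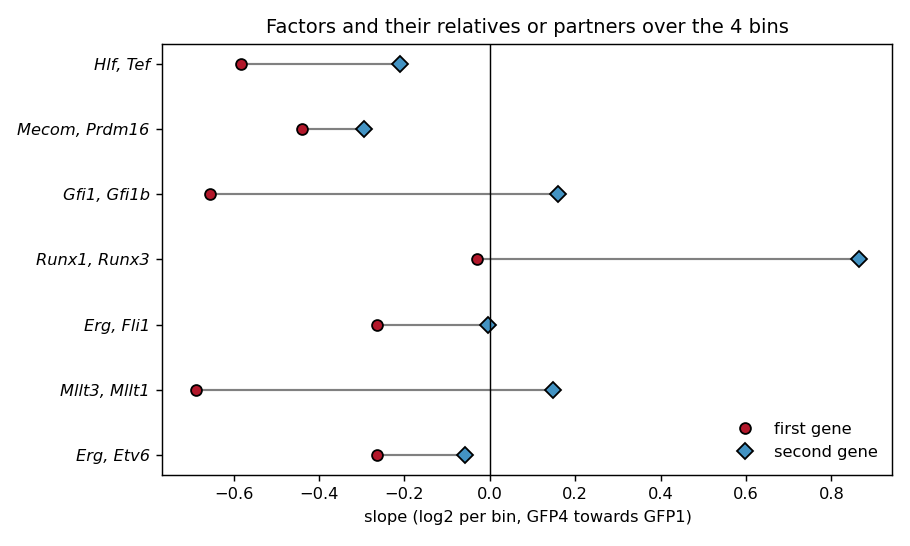
Slope of log2 expression per bin from GFP4 towards GFP1 (horizontal axis) for the first gene (circle) and the second gene (diamond) of 7 pairs, from 12 libraries. In every pair the circle lies to the left of the diamond, and the widest gaps are those of Runx1 with Runx3 (-0.90), Mllt3 with Mllt1 (-0.84) and Gfi1 with Gfi1b (-0.81).

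The wider families and complexes were counted in GFP1 against GFP4, where 9.27% of all genes were called higher and 10.3% lower. Of the other 5 heptad factors 0 were higher and 1 lower, Lmo2, the bridging LIM protein (log2 difference -0.88, adjusted p 9.09e-08 in limma). Fli1 (-0.01), Gata2 (0.00), Lyl1 (-0.32) and Tal1 (-0.08) were not called. Of 16 further HSC transcription factors 0 were higher and 10 lower. Those with the smallest p were Nkx2-3 (-1.81), the LIM-binding cofactor Ldb1 (-0.63) and Zfp521 (-0.68). The median difference of the 16 was -0.57, against -0.07 over all genes tested. All 3 of Tef (-0.69), Dbp (-0.72) and Nfil3 (-1.03), the relatives of Hlf and the repressor that binds the same sites, were lower, although Nfil3 had adjusted p of 0.0668 without GFP1 replicate I and 0.0724 without GFP4 replicate III.

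The families of the other members were mixed. Among 8 TALE genes 3 were higher, among them Pknox1 (0.42) and Pbx4 (0.54), and 2 were lower, Meis3 (-1.96) and Meis2 (-1.02). The call of Pbx4 was lost without replicate I or III of GFP4 or replicate I or II of GFP1 (adjusted p between 0.0791 and 0.179). Pknox1 was lost without GFP1 replicate I (0.0638). Meis2 was lost in 13 of 23 alternatives, both rescalings among them (0.0947 and 0.0652), and with 1 library left out reached at most 0.193 (without GFP1 replicate II). Among 6 genes of the RUNX and core binding factor group, Runx3 was higher (2.60) and Runx1t1 (-2.24), Runx2 (-0.43) and Cbfa2t3 (-0.42) were lower. The call of Runx2 was lost without GFP1 replicate III (0.0618), and that of Cbfa2t3 without GFP4 replicate II (0.0512) or GFP1 replicate II (0.0815). Among 16 PRDM genes and corepressors, Suv39h1 (0.70), Ctbp1 (0.34) and Prdm1 (2.36) were higher, Prdm1 also being a marker of the plasma cell list, and 2 were lower, among them Ski (-3.86). Ski, a corepressor known to bind Prdm16, averaged 8.49 ± 0.11 in GFP1 and 12.4 ± 0.17 in GFP4 (SD, n = 3 each). Its spread in the fit was wider. In GFP3 against GFP4 the log2 difference of Ski was -2.41 ± 0.65 (SE), not called by limma (adjusted p 0.376). In GFP2 against GFP4 it was -3.43 ± 0.65 (SE), called lower (adjusted p 0.0145).

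Of 8 genes of the GFI and LSD1-CoREST group, Hdac2 was higher (0.44) and Rcor2 (-0.79) and Rcor3 (-0.31) lower, and the demethylase Kdm1a was not called. Of 17 genes around Mllt3 in the super elongation complex and the DOT1L complex, 3 were higher (Mllt1 at 0.45, Eaf2 at 1.29 and the methyltransferase Dot1l at 0.63) and 3 lower (the leukemia partner gene Kmt2a at -0.68, Aff4 at -0.59 and Aff1 at -0.43). Eaf2 was not called in GFP2 against GFP4 (-0.19) or in GFP1 against Total (0.11). It was lower than in Total in GFP3 (-1.21, adjusted p 0.0286 in limma) and GFP2 (-1.37, 0.0343), bins low in immunoglobulin transcripts. Of 23 ETS genes 2 were higher, Elf1 (0.48) and Spib (1.38), a factor of B cells and plasmacytoid dendritic cells, and 6 were lower. The lower ETS genes with the smallest p were Etv3 (-0.71), Elk3 (-0.59) and Etv5 (-0.49). The call of Etv5 was lost without GFP4 replicate I (0.0725), GFP4 replicate II (0.0505) or GFP1 replicate III (0.0848). The call of Rcor3 was lost under median-of-ratios rescaling (0.0584) and without GFP4 replicate II or III or any 1 GFP1 library (adjusted p between 0.0514 and 0.0936).

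**Figure D4:**
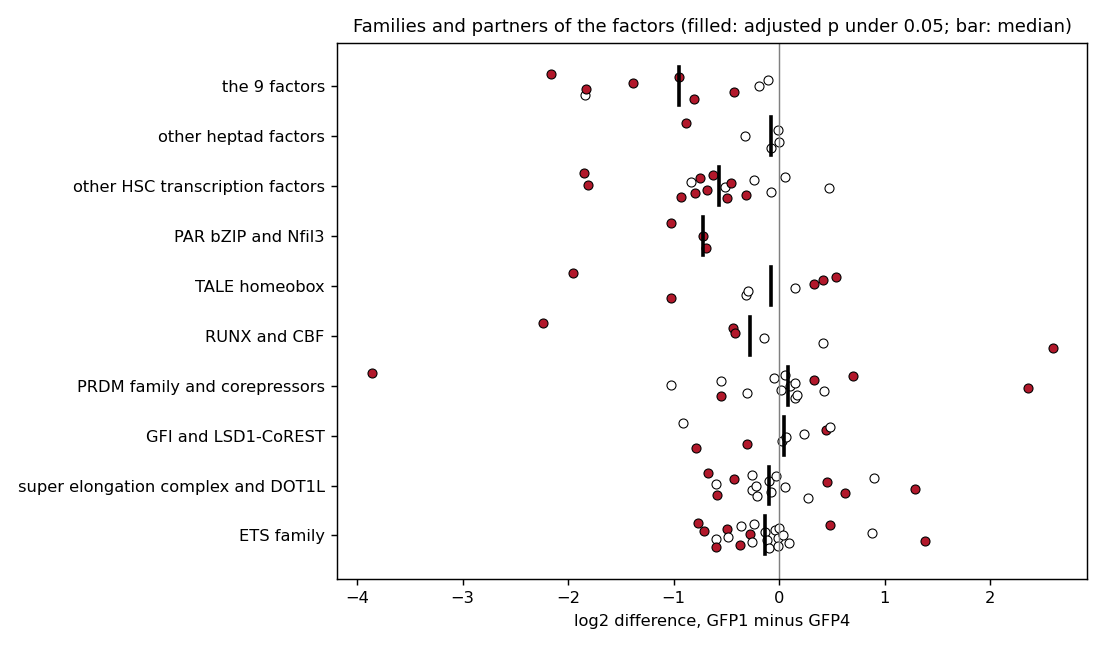
Log2 difference of GFP1 minus GFP4 (horizontal axis) for the 9 factors and for the genes of 9 related groups (rows); each point is a gene, filled where limma's adjusted p was under 0.05, and black bars are row medians. The median is -0.95 for the 9 factors and -0.57 for the other HSC transcription factors, and lies between -0.28 and 0.08 for the RUNX, TALE, PRDM, GFI, super elongation, ETS and other heptad rows.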

How the data were processed

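RNA of sorted HSCs was made into cDNA with SMART-Seq v4 and libraries with Nextera XT, per the labels' protocols. The authors deposited 1 table of log2 values for 15 libraries. Per the submitters' processing notes they used kallisto 0.43.0 and GRCm38. Neither the unit before normalization nor the offset is stated in the sources used. The columns share 1 distribution, so the values are quantile normalized, and depth is unknown. Quantile normalization lowers other genes where some enter the top ranks, as immunoglobulin genes do in GFP1 and Total. Lists and members were chosen with earlier results of these data known.

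Linear values were taken as 2 to the power of the value, minus 1. A gene needed a linear value of 1 or more in 3 or more libraries, which left 27994 genes, all 9 members among them. The model had a mean for each group over all 15 libraries and no covariate, with intensity trend and robust moderation (limma 3.58.1, R 4.3.3) and Benjamini-Hochberg adjustment over all genes tested. Pairs were compared by exact permutation of bin labels over 12 libraries (369600 arrangements) in Python 3.11.15 with numpy 2.4.6. The members were all described; other genes named are the called genes with the smallest p in GFP1 against GFP4, at most 3 in each direction of a list, the pairs' second genes, and the 3 most like each member. Some genes that this rule takes, 1 of them in a pair, are not reported here; p-values remain adjusted over all 8 pairs. Genes left uncalled were named after their values were seen. The planned display of proteins was not made, as no protein table was used here. Libraries with the same number share mouse age and drug time, per the labels. Their deviations from group means correlated at over 0.1 in every pair for GFP1 with GFP2, GFP3 and Total and for Total with GFP2 and GFP3. The numbers were taken to pair libraries there, and not in the comparisons with GFP4 or of GFP2 with GFP3. Even there, the calls and counts reported come from the fit without a block, and member calls that a replicate block changed are given below. The pair test permuted bin labels without regard to the replicate numbers. The fit was tested on simulated data. Alternatives tried were 2 rescalings, 2 filters, array weights, a replicate block, fits of fewer groups, a pseudocount of 0.1 and each library left out.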

Additional observations from a re-analysis of the deposited data

How the results depend on the processing

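Over all alternatives run, Mllt3, Hlf, Mecom, Prdm16 and Erg stayed lower in GFP1 than in GFP4 and past the threshold, and Meis1 did not. Members called in that comparison numbered 5 to 6 when 1 library was left out. Etv6 in GFP2 against GFP4 ranged over -0.14 to 0.0244 when 1 library was left out, a turn of sign in a gene that was not called. Of the 41 relatives named, 31 were called under every alternative.

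Whether the replicate numbers pair libraries differed between groups. Same-numbered libraries of different groups correlated between -0.409 and 0.587 in their deviations from group means (21 of 30 pairs over 0.1), and libraries with different numbers between -0.381 and 0.419 (10 of 60). The medians were 0.19 and -0.106. In GFP1 against GFP2, and in GFP3, GFP2 and GFP1 against Total, a replicate block changed no member's call except that of Mllt3 in GFP3 against Total. In the other comparisons, where not every pair was over 0.1, the block called 4 members in GFP2 against GFP4, against 2 without it, with Mecom (adjusted p 0.0464 in limma) and Gfi1 (0.00926) added, and it called Gfi1 in GFP1 against GFP4 (0.0049) and in the trend (0.00216), and 6 members in GFP4 against Total, against 5. Genes called with the block numbered 48 in GFP3 against GFP4, 5 in GFP2 against GFP3 and 927 in GFP3 against Total.

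In a fit of the compared groups alone, members called numbered 4 in GFP2 against GFP4, 1 in GFP3 against Total and 2 in GFP1 against Total, and Gfi1 in GFP1 against GFP4 had an adjusted p of 0.036. Genes called then numbered 10 in GFP3 against GFP4, against 16 in the fit reported, and 1660, 144, 50 and 89 in GFP4, GFP3, GFP2 and GFP1 against Total, against 2799, 599, 92 and 484. Genes called in GFP3 against GFP4 were 7 with no filter, 10 with a filter at a mean of 1 ppm and 9 without the GFP1 and Total libraries. Without immunoglobulin genes 1 gene was called in GFP2 against GFP3 and 51 in GFP2 against Total, and array weights gave 2 in GFP2 against GFP3. With 1 library left out, genes called ranged over 0 to 121 in GFP3 against GFP4, 0 to 19 in GFP2 against GFP3, 1205 to 2479 in GFP1 against GFP2, 534 to 1621 in GFP2 against GFP4, 1864 to 2781 in GFP4 against Total, 201 to 625 in GFP3 against Total, 57 to 124 in GFP2 against Total and 197 to 563 in GFP1 against Total. Members called in GFP1 against Total ranged over 2 to 4. The causes were not tested. In GFP1 against GFP2, 42.8% of called genes were higher, and 55.5% under median-of-ratios rescaling. In the trend, 2687 genes were higher and 2931 lower as reported, 3028 and 2626 by median of ratios and 2752 and 2613 without immunoglobulin genes. With the GFP1 libraries left out, 3 member pairs passed.

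The table gives no depth, so precision rests on 3 libraries a group.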
